A study of Mus musculus with 18 samples.

Results

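Expression of 36 genes that mark the oligodendrocyte lineage was followed through 4 stages in mouse spinal cord. The genes were taken from a list drawn up from known cell type markers: 7 genes of oligodendrocyte precursors, 4 transcription factors shared by the whole lineage, 5 genes of newly formed oligodendrocytes and 20 genes of myelinating oligodendrocytes. The list was chosen with earlier results of these data known, so counts of its members are a description. All 36 were found among the 54446 genes of the count table, and all 36 were among the 20635 genes with enough counts to be tested. RNA of the whole spinal cord was sequenced in 18 untreated mice, 10 months old, after removal of ribosomal RNA, with 3 mice in each of 6 genotypes, as the design text gives it. Non-transgenic C57BL/6 mice (NTg) carried no knock-in. The other 5 groups were all heterozygous for human sequences placed in the mouse genome: hATXN2-Q22 (Q22) and hATXN2-Q33 (Q33), which code for ATXN2 with a shorter and a longer run of glutamines, hTDP-43 (TDP-43), and the pairs Q22;TDP-43 and Q33;TDP-43, called the Q22 double and the Q33 double here. ATXN2 and TDP-43 are RNA-binding proteins linked to amyotrophic lateral sclerosis, and the comparisons ask what each knock-in, and each pair, does to the cord. The labels used here name no promoter or cell type that limits the knock-ins, and no litter or batch.

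Oligodendrocytes wrap the axons of the central nervous system in myelin. They arise from precursors that divide in response to platelet-derived growth factor and stay present in the adult cord, pass through a short newly formed state in which contact with the axon is tested, and then build and maintain myelin sheaths. Olig2, Sox10 and related factors act throughout the lineage, while Myrf switches on the myelin genes. In RNA from a whole cord, fewer cells of a type and less RNA per cell of that type cannot be told apart.

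Libraries held 16061359 to 30978678 gene counts, so even the precursor genes were well covered, with 243 to 449 counts of Cspg4 per library and 311 to 1081 of Cacng4. Ninj2 was the thinnest member at 14 to 61 counts. Levels are given in CPM, with library sizes corrected by edgeR's TMM factors so that libraries can be compared, and compared between genes only per kilobase of exon. The 3 Q33 double libraries stood apart in their make-up. Mitochondrial ribosomal RNA took 28.7%, 26.3% and 23.4% of their counts, against 12.7% to 23.4% in the other 15 libraries. Genes of the Hox10 and Hox11 groups, which are expressed towards the tail end of the cord, had a mean level on the log2 CPM scale of 1.21, 3.54 and 0.55 there, against -0.78, -1.97 and -1.52 in NTg, and they were also high in Q33 replicates 2 and 3 (2.71 and 1.95) and Q22 double replicate 1 (3.51). Hoxa11 was at 0 counts in 9 of the 18 libraries and Hoxc11 in 10. The labels name the whole cord, and whether all libraries hold the same parts of it was not tested. RNA of Y-linked genes exceeded 10 CPM in 0 of 3 NTg, 3 of 3 Q22, 2 of 3 Q33, 2 of 3 TDP-43 and 1 of 3 libraries of each double. Libraries held either 0.723 to 2.45 or 156 to 212 CPM of it, so by this RNA the mix of sexes differed between genotypes. The NTg and Q22 cords shared no sex by this RNA, and genotype and sex cannot be told apart between them.

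Defining markers of Schwann cells, the other myelin-forming cell type, were close to absent. Pmp2, a fatty acid-binding protein of peripheral myelin, reached at most 0.0673 CPM and was at 0 in 14 of 18 libraries, while Prx reached at most 0.335 CPM. The summed level of all 12 Schwann cell markers ran from 147 to 150.5 CPM in NTg and from 116 to 147 CPM in the Q33 double, most of it from Pmp22, Drp2 and Sox2, which cells of the cord also express. The 4 lineage factors, by contrast, were at 6.41 CPM or more in every library.

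These 4 members were chosen to show the sequence in front of the gene, 3 that fell in the Q33 double (Enpp6, Pdgfra and Vcan) and Lhfpl3, which rose in 2 of its comparisons. The 250 bases upstream of the start site are from RefSeq on GRCm38.p6 (the same build as mm10), read 5′ to 3′ along the gene. They lie at chr8:46986637-46986886 on the plus strand for Enpp6, chr5:75152001-75152250 on the plus strand for Pdgfra, chr13:89742513-89742762 on the minus strand for Vcan and chr5:22745804-22746053 on the plus strand for Lhfpl3. Capitals mark matches, on either strand, to ACAAAG or ACAATG (letters that SOX factors recognise), CAGCTG (an E-box recognised by factors of the Olig type) and CTGGNAC (recognised by Myrf).
Enpp6: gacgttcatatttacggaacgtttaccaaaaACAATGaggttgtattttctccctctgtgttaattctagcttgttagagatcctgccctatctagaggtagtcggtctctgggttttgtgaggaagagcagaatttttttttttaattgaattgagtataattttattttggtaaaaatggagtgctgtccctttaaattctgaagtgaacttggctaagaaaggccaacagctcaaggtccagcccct
Pdgfra: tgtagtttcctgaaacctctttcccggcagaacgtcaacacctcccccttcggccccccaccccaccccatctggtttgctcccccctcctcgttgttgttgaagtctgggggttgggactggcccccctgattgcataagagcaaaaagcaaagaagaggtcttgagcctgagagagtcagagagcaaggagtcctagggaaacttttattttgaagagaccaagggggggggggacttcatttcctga
Vcan: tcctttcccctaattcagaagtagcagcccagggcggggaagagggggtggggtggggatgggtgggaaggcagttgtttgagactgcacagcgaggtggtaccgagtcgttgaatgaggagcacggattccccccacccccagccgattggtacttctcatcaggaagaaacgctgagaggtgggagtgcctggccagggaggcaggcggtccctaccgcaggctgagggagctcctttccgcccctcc
Lhfpl3: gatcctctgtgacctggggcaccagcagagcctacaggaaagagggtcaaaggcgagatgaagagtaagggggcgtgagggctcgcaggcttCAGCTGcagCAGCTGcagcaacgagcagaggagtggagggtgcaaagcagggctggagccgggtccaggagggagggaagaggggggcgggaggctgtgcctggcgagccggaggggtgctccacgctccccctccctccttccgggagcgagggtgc
Enpp6 held 1 match to ACAATG and Lhfpl3 held 2 to CAGCTG, with no overlap between matches. Pdgfra and Vcan held none, which says only that these letters are not in these windows. G and C made up 38.4% of the Enpp6 window, 54.4% of Pdgfra, 62.4% of Vcan and 67.2% of Lhfpl3. Of the 36 members, 27 were matched to the promoter table, with 39 start sites between them, because some genes have several. ACAAAG was found in front of 15 of the 39 start sites, from 9 members (Apod, Cnp, Gjb1, Mag, Mobp, Opalin, Sox6, Tcf7l2 and Tspan2), and in 16.5% of all 32851 promoter windows of this length, ACAATG in 7 and 10.7%, CAGCTG in 4 and 13%, and CTGGNAC in 8 and 16.1%. Start sites of 1 gene share sequence, so these counts are a description.

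In the NTg cord the levels spanned the range from structural myelin to rare precursor transcripts. Mbp, the protein that compacts the myelin membrane, was highest at 562 ± 47.4 CPM per kb (mean ± SD, n = 3), followed by Mobp at 293 ± 15.8. Ermn (131 ± 11.02), Mal (131 ± 4.45) and Apod (117 ± 8.49) came next. Among the newly formed genes Bcas1 was far above the rest at 102 ± 22.8 CPM per kb, against 13.9 ± 0.474 for Myrf, 7.78 ± 0.719 for Enpp6, 3.88 ± 1.14 for Gpr17 and 1.86 ± 0.0691 for Tcf7l2. Precursor genes ran from Ptprz1 at 22.6 ± 1.29, a receptor phosphatase that astrocytes also express, down to Cspg4 at 1.43 ± 0.147, the lowest of the 36. The lineage factors lay between 3.96 ± 0.21 for Nkx2-2 and 19.5 ± 0.514 for Olig1.

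**Figure D1:**
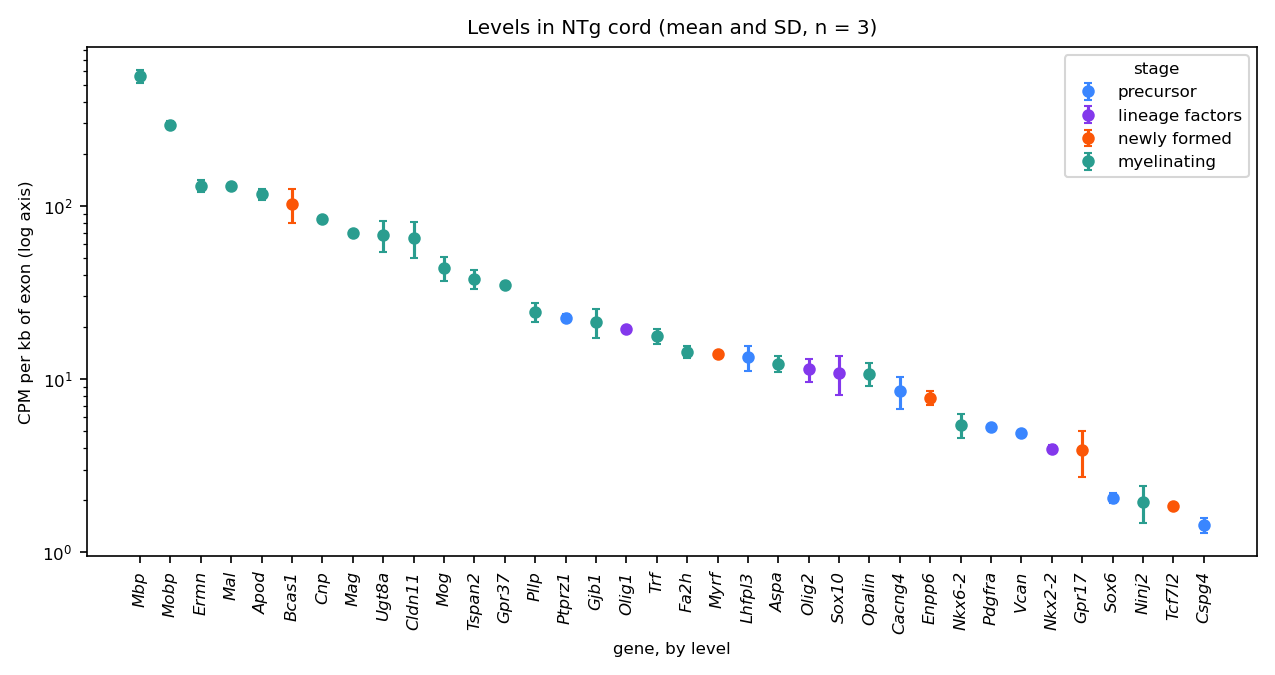
Level of each of the 36 genes in NTg cord in CPM per kilobase of exon, on a log axis, ordered from highest to lowest and coloured by stage. Points are means and bars SD over 3 mice. Myelinating genes fill most of the upper end, from Mbp at 562 CPM per kb, and Cspg4 is lowest at 1.43.

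Across the genotypes, members passed the threshold only in comparisons that involve the Q33 double. The rule for a change was an adjusted p under 0.05 in edgeR's quasi-likelihood test, adjusted over all 20635 genes. Against NTg, 7 of 36 members fell and none rose. Those 7 were Cacng4, Pdgfra and Vcan of the precursor genes, Enpp6 and Myrf of the newly formed genes, and Cldn11 and Fa2h of the myelinating genes. Of all genes tested in that comparison, 6.39% fell and 5.68% rose, 12.1% in all. The median log2 fold change was -0.25 over the 36 members and -0.01 over all genes, and 31 of the 36 members had a value below 0. With library totals in place of TMM scaling the median of all genes itself moved to -0.25, 22 members fell and none rose, and the split over all genes went from 1318 lower and 1173 higher to 3940 lower and 206 higher. Against TDP-43, the Q22 double and Q33 that scaling gave 25, 16 and 3 members lower and none higher, with all-gene medians of -0.25, -0.25 and -0.15. Of all genes, 18.6%, 17.6% and 1.86% were then called lower and 1.24%, 1.43% and 0.0582% higher.

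Set against TDP-43, 10 members fell and 1 rose, where 6.66% of all genes fell and 5.98% rose (12.6% in either direction). Set against the Q22 double, 5 members fell and 1 rose, where 6.17% of all genes fell and 6.67% rose (12.8% in either direction). Set against Q33, 1 member fell and none rose, where 0.678% of all genes fell and 0.213% rose (0.892% in either direction). These 4 comparisons share the Q33 double libraries, so their values stand side by side and do not count as repeats. Libraries of the Q33 double lay wholly below those of the other group for 17 members against NTg (15.8% of all genes), 18 against TDP-43 (14.1%), 5 against the Q22 double (14.4%) and 14 against Q33 (11.3%). They lay wholly above for Olig1 against NTg and Opalin against TDP-43 and for no other member in these 4 comparisons, where 14.4%, 13.1%, 14.8% and 11.4% of all genes did so against NTg, TDP-43, the Q22 double and Q33.

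These counts moved with single libraries, and the share of all genes called moved with them. Against NTg 3 members passed without NTg replicate 3, where 2.69% of all genes fell and 1.99% rose, and 2 without Q33 double replicate 1 (2.08% and 0.764%), with 2 to 10 over all 6 omissions. Against TDP-43, 4 passed without Q33 double replicate 1 (1.82% and 0.788%) and 5 without TDP-43 replicate 3 (2.03% and 1.48%). Against the Q22 double, 2 passed without Q22 double replicate 3 (2.46% and 1.31%) and 2 without Q33 double replicate 1 (2.17% and 1.22%). Against Q33 the count was 0 without Q33 double replicate 1 (0.033% and 0%) or any 1 of the 3 Q33 libraries (0.0943% to 0.444% lower, 0.00471% to 0.0378% higher), and 4 without Q33 double replicate 3 (1.19% and 0.67%). A fit on only the 6 libraries of a comparison called 2 members against TDP-43 (Cacng4 and Enpp6, with 1% and 0.328% of all genes) and 3 against the Q22 double (3.88% and 3.4%). DESeq2 called 9, 15, 7 and 7 members against NTg, TDP-43, the Q22 double and Q33. Of the 39215 genes it gave a p-value, low counts included, it called 3.76% lower and 4.62% higher, 4.09% and 4.6%, 3.87% and 4.81%, and 1.25% and 1.45%.

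**Figure D2:**
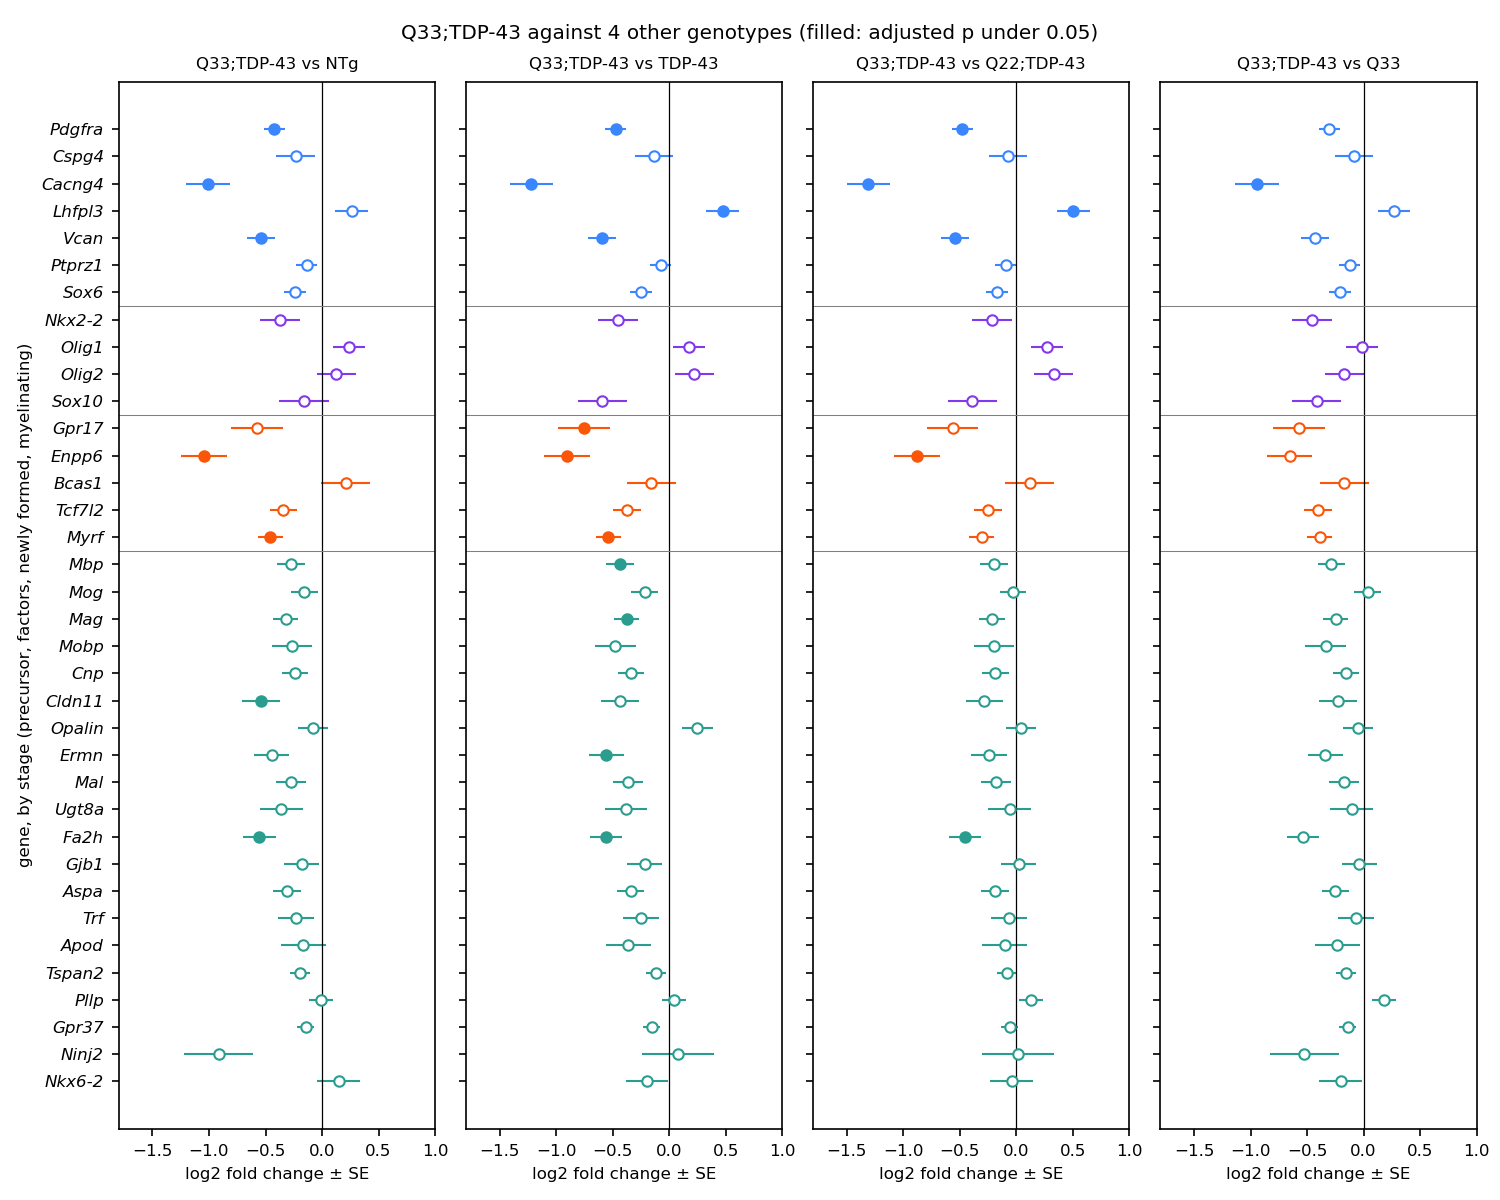
Log2 fold change with SE of each member in the Q33 double (Q33;TDP-43) against NTg, TDP-43, Q22;TDP-43 and Q33, coloured by stage, with filled points for an adjusted p under 0.05. Cacng4 is filled in all 4 panels, Pdgfra, Vcan, Enpp6 and Fa2h in the first 3, and Lhfpl3 lies on the right in every panel.

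**Figure D3:**
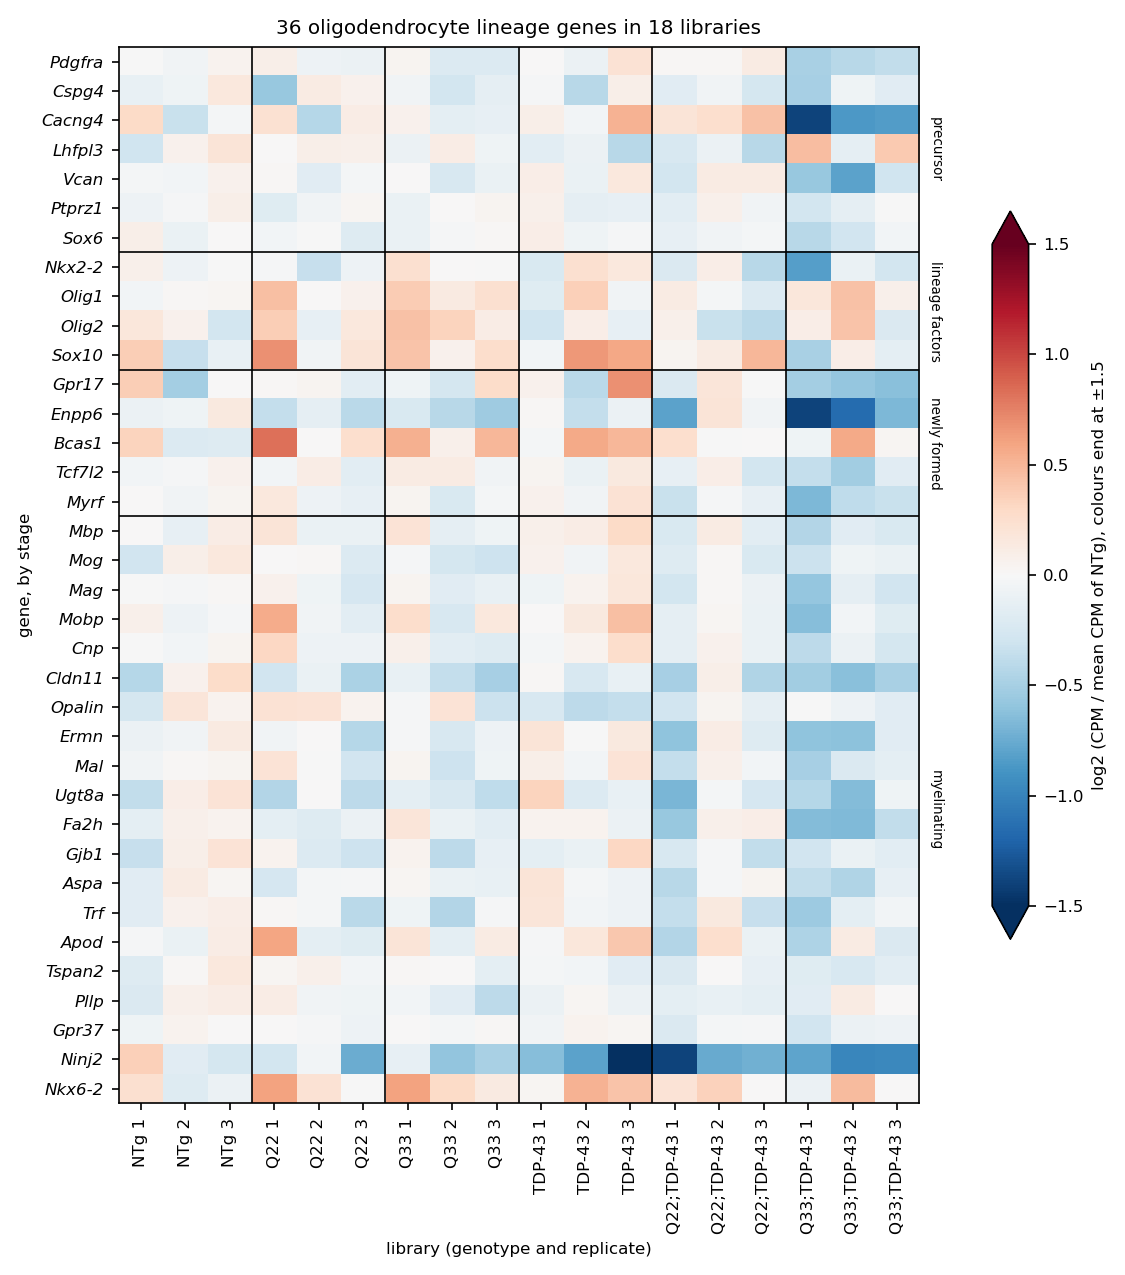
Log2 ratio of CPM to the NTg mean for 36 genes (rows, by stage) in 18 libraries (columns, 3 per genotype), with colours that end at ±1.5. The 3 columns of Q33;TDP-43 on the right are mostly blue in the precursor, newly formed and myelinating blocks, Q33;TDP-43 replicate 1 most of all, while Olig1 and Lhfpl3 are red in several of them.

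The precursor stage held the change with the smallest p of the 36. Cacng4 (chr11:107732357-107794557, minus strand, coordinates here and below in mm10 with GENCODE vM19) codes for a subunit that accompanies AMPA-type glutamate receptors. Cacng4 stood at 37.3, 24.2 and 29.8 CPM in the NTg cords and 11.7, 16.8 and 17.03 CPM in the Q33 double cords. Values were 35.6, 22.7 and 32.8 in Q22, 31.96, 27.5 and 28.05 in Q33, 32.4, 29.5 and 43.8 in TDP-43 and 34.8, 36.4 and 41.4 in the Q22 double. All 3 Q33 double values lay below all 15 others. How many of all genes show this pattern, here or for the members below, was not counted. Cacng4 had a log2 fold change of -1.01 ± 0.19 (SE) against NTg, 2.01-fold lower (adjusted p = 0.0039, edgeR quasi-likelihood test), and -1.31 ± 0.19 against the Q22 double (adjusted p = 0.000518). It was -1.22 against TDP-43 and -0.94 ± 0.19 against Q33, the 1 member that passed there (edgeR adjusted p = 0.0273). No single library ended the call against NTg, TDP-43 or the Q22 double, but the call against Q33 was lost without any 1 of Q33 replicates 1, 2 and 3 and Q33 double replicate 1 (adjusted p of 0.0549 to 0.204).

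Pdgfra (chr5:75152292-75198215, plus strand), the receptor through which platelet-derived growth factor keeps precursors dividing, moved less but with little spread. CPM values of Pdgfra were 52.6, 50.9 and 54.8 in NTg and 37.7, 39.6 and 40.9 in the Q33 double cords. Among the other genotypes the values were 56.3, 50.2 and 49.5 in Q22, 54.1, 45.7 and 45.95 in Q33, 52.96, 49.7 and 61.3 in TDP-43 and 53.3, 53.6 and 57.5 in the Q22 double. Again all 3 Q33 double values were the lowest of the 18. On the log2 scale Pdgfra gave -0.42 ± 0.09 against NTg (edgeR adjusted p = 0.00797) and -0.48 ± 0.09 against the Q22 double (edgeR adjusted p = 0.00357). Against TDP-43 it was -0.47, and against Q33 it was -0.30, which did not pass (edgeR adjusted p = 0.0973). The call against NTg was lost without Q33 double replicate 1 (adjusted p = 0.0533).

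Vcan (chr13:89655312-89742509, minus strand) codes for versican, a chondroitin sulphate proteoglycan of the matrix around precursors. Vcan stood at 69.0, 68.3 and 73.9 CPM in the NTg cords and 47.6, 40.4 and 57.3 CPM in the Q33 double cords. In Q22 Vcan was at 71.4, 62.4 and 69.2, in Q33 at 70.8, 59.5 and 65.5, in TDP-43 at 75.7, 65.5 and 78.3 and in the Q22 double at 57.99, 76.6 and 76.8. The Q33 double values were the 3 lowest, the highest of them (57.3) just under the lowest of the rest (57.99, Q22 double replicate 1). The log2 fold change of Vcan was -0.54 ± 0.12 against NTg and -0.59 ± 0.12 against TDP-43 (edgeR adjusted p = 0.0109 and 0.00659), and -0.54 against the Q22 double. The Vcan call against NTg was lost without any 1 of NTg replicate 3 and Q33 double replicates 1 and 2 (adjusted p of 0.0506 to 0.0575), and that against the Q22 double without any 1 of Q22 double replicate 3 and Q33 double replicate 1 (adjusted p of 0.0528 to 0.0695).

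Lhfpl3 (chr5:22746059-23275597, plus strand), a membrane protein of the LHFPL family, went the other way. CPM values of Lhfpl3 were 34.8, 44.7 and 48.97 in NTg and 59.01, 38.9 and 56.1 in the Q33 double cords. The Q22 cords held 43.02, 45.3 and 45.3, the Q33 cords 40.4, 46.4 and 41.02, the TDP-43 cords 38.3, 40.3 and 32.2 and the Q22 double cords 36.2, 40.3 and 32.2. Q33 double replicates 1 and 3 were the 2 highest of all 18, while replicate 2 lay within the other groups. Lhfpl3 rose by a log2 fold change of 0.50 ± 0.15 against the Q22 double (edgeR adjusted p = 0.03) and 0.47 ± 0.15 against TDP-43 (edgeR adjusted p = 0.0391). Against NTg its value of 0.26 ± 0.15 did not pass (edgeR adjusted p = 0.248). Single libraries decided both calls. The call against the Q22 double was lost without any 1 of Q22 double replicates 1 and 3 and Q33 double replicates 1 and 3 (adjusted p of 0.0558 to 0.17), and that against TDP-43 without any 1 of Q33 double replicates 1 and 3 and TDP-43 replicates 1 and 3 (adjusted p of 0.0763 to 0.206). With library totals the values were 0.28 and 0.25, and neither passed (adjusted p = 0.172 and 0.204).

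The other 3 precursor genes passed in no comparison. Cspg4, the NG2 proteoglycan that is the classic surface marker of precursors, was at 15.8, 16.3 and 19.1 CPM in NTg and 12.1, 16.3 and 15.2 CPM in the Q33 double, with a log2 fold change of -0.23. Ptprz1 was at 306, 317 and 342 and 265, 292 and 321 CPM (-0.14). Sox6, a transcription factor that holds precursors back from differentiation, was at 32.4, 28.4 and 30.4 and 22.8, 24.9 and 29.5 CPM (-0.24). The precursor genes were thus uneven, from -1.01 for Cacng4 to 0.26 for Lhfpl3 against NTg, with a median of -0.24.

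None of the 4 lineage factors passed in any comparison. Nkx2-2, a homeobox factor of precursors and early oligodendrocytes, had the largest estimate against NTg. Nkx2-2 stood at 11.998, 10.8 and 11.4 CPM in the NTg cords and 6.41, 10.6 and 9.42 CPM in the Q33 double cords. Among the other genotypes the values were 11.3, 8.99 and 10.8 in Q22, 13.5, 11.4 and 11.4 in Q33, 9.71, 13.5 and 12.7 in TDP-43 and 9.82, 12.2 and 8.57 in the Q22 double. Replicate 1 of the Q33 double was the lowest of all libraries, while its replicate 2 was close to the NTg values. Nkx2-2 had a log2 fold change of -0.37 ± 0.18 against NTg (edgeR adjusted p = 0.175) and its smallest adjusted p among the Q33 double comparisons was 0.101, against TDP-43 (-0.45 ± 0.18). Olig1, a basic helix-loop-helix factor needed for maturation, was at 40.9, 42.6 and 42.97 CPM in NTg and 47.3, 57.3 and 44.6 CPM in the Q33 double, without overlap, but its difference of 0.24 ± 0.14 did not pass (edgeR adjusted p = 0.282). Olig2, which specifies the lineage, was at 32.3, 30.2 and 23.8 and 30.9, 38.6 and 24.8 CPM (0.13). Sox10, which is kept from precursor to myelinating cell, was at 42.6, 26.1 and 30.6 and 23.6, 35.6 and 29.9 CPM (-0.16). The median over these 4 was -0.02 against NTg, with 2 above and 2 below 0, and a wide spread within groups: Sox10 ran from 31.95 to 53.03 CPM among the Q22 cords alone.

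Of the 5 newly formed genes, 2 fell against NTg and 3 against TDP-43, where 1318 and 1375 of all 20635 genes fell. Enpp6 (chr8:46986887-47096762, plus strand), a choline phosphodiesterase that marks oligodendrocytes just after they leave the precursor state, had the largest fold change of the 36 against NTg. Enpp6 stood at 46.8, 47.7 and 55.2 CPM in the NTg cords and 19.02, 22.5 and 31.2 CPM in the Q33 double cords. Values were 39.1, 45.3 and 37.6 in Q22, 42.7, 37.3 and 34.4 in Q33, 50.4, 38.8 and 46.8 in TDP-43 and 28.6, 56.98 and 47.96 in the Q22 double. The Q33 double values lay below all NTg, Q22, Q33 and TDP-43 values, and overlapped the Q22 double only through its replicate 1 (28.6). On the log2 scale Enpp6 gave -1.04 ± 0.20 against NTg, 2.06-fold lower (edgeR adjusted p = 0.00414), -0.90 against TDP-43 and -0.88 against the Q22 double, which passed, and -0.66 ± 0.20 against Q33, which did not (edgeR adjusted p = 0.0991). No single library ended the Enpp6 call against NTg. It was lost against TDP-43 without Q33 double replicate 1 (adjusted p = 0.0691), and against the Q22 double without any 1 of Q22 double replicates 2 and 3 and Q33 double replicate 1 (adjusted p of 0.0511 to 0.068).

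Myrf (chr19:10208272-10240748, minus strand), the membrane-bound factor that activates myelin genes, also fell. CPM values of Myrf were 119, 115 and 123 in NTg and 74.2, 91.2 and 94.1 in the Q33 double cords. In Q22 Myrf was at 133, 113 and 109, in Q33 at 122, 101 and 116, in TDP-43 at 125, 115 and 138 and in the Q22 double at 94.7, 118 and 109. The 3 Q33 double values were the lowest of the 18, with replicate 1 lowest. Myrf had a log2 fold change of -0.46 ± 0.11 against NTg (edgeR adjusted p = 0.0137) and -0.54 ± 0.11 against TDP-43 (edgeR adjusted p = 0.00583). The call against NTg was lost without any 1 of NTg replicate 3 and Q33 double replicate 1 (adjusted p of 0.0554 to 0.0932), and none was lost against TDP-43.

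Gpr17, a receptor that is switched on as precursors begin to differentiate and off before myelination, was tight in the Q33 double and scattered elsewhere. Gpr17 stood at 26.1, 14.2 and 20.2 CPM in the NTg cords and 14.1, 13.5 and 13.1 CPM in the Q33 double cords. Among the other genotypes the values were 20.4, 20.6 and 17.99 in Q22, 19.3, 16.8 and 24.3 in Q33, 21.1, 15.2 and 32.4 in TDP-43 and 17.4, 22.8 and 20.1 in the Q22 double. All 3 Q33 double values lay below the other 15, although NTg replicate 2 (14.2) was close. Gpr17 fell against TDP-43 (-0.75 ± 0.23, edgeR adjusted p = 0.0378), a call lost without any 1 of Q33 double replicates 1, 2 and 3 and TDP-43 replicates 1 and 3 (adjusted p of 0.0738 to 0.282). Against NTg the log2 fold change of -0.57 ± 0.23 did not pass (edgeR adjusted p = 0.107). Tcf7l2, a Wnt pathway factor of newly formed cells, was at 15.8, 16.003 and 16.9 CPM in NTg and 12.7, 11.3 and 14.5 CPM in the Q33 double and did not pass (-0.34 ± 0.12, edgeR adjusted p = 0.0755). Bcas1 was the exception in level and in sign, at 485, 335 and 336 CPM in NTg and 368, 574 and 394 CPM in the Q33 double (0.21 ± 0.22), with values from 335 to 682 CPM over the 18 libraries. The median over the 5 genes was -0.46 against NTg, and Bcas1, the 1 gene above 0, supplies most of their summed counts.

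**Figure D4:**
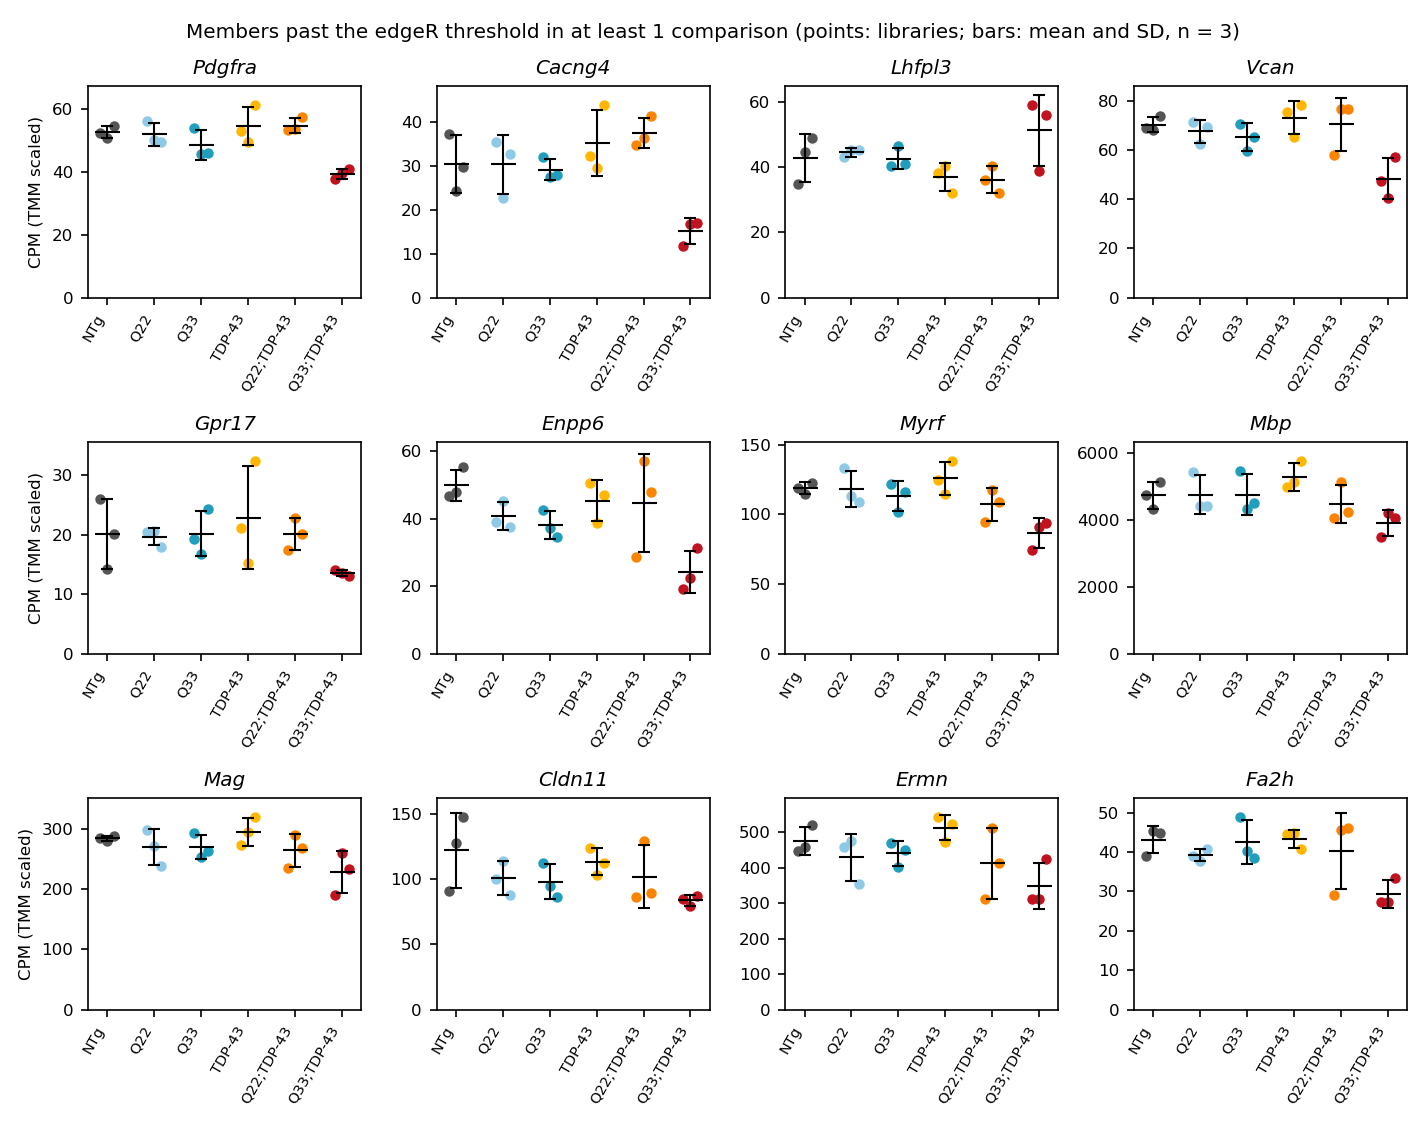
CPM of the 12 members that passed the threshold in at least 1 comparison, with 1 point per library and the mean and SD (n = 3) of each genotype. The Q33;TDP-43 points are the 3 lowest of the panel for Pdgfra, Cacng4, Vcan, Gpr17 and Myrf, and Lhfpl3 is the 1 panel in which they reach highest. The share of all genes with such a pattern was not counted.

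Among the 20 myelinating genes 2 fell against NTg and 4 against TDP-43, where 1318 and 1375 of all 20635 genes fell. The median over the 20 was -0.25 and -0.34. Fa2h (chr8:111345135-111393824, minus strand), which hydroxylates the fatty acids of myelin lipids, fell in 3 comparisons. Fa2h stood at 39.1, 45.5 and 44.9 CPM in the NTg cords and 27.4, 27.3 and 33.5 CPM in the Q33 double cords. The Q22 cords held 39.1, 37.7 and 40.8, the Q33 cords 48.9, 40.3 and 38.5, the TDP-43 cords 44.7, 44.8 and 40.7 and the Q22 double cords 29.1, 45.6 and 46.1. The Q33 double lay below every other library but Q22 double replicate 1, which at 29.1 CPM fell between its replicates. The log2 fold change of Fa2h was -0.55 ± 0.14 against NTg (edgeR adjusted p = 0.0188), -0.56 ± 0.14 against TDP-43 (edgeR adjusted p = 0.0165) and -0.45 against the Q22 double. Each call hung on single libraries: that against NTg was lost without any 1 of NTg replicates 2 and 3 and Q33 double replicates 1 and 2 (adjusted p of 0.0545 to 0.0984), that against TDP-43 without any 1 of Q33 double replicates 1 and 2 and TDP-43 replicates 1 and 3 (adjusted p of 0.0514 to 0.0948) and that against the Q22 double without any 1 of Q22 double replicates 2 and 3 and Q33 double replicates 1 and 2 (adjusted p of 0.128 to 0.221).

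Cldn11 (chr3:31149920-31164324, plus strand), the claudin that seals the layers of the sheath with tight junctions, passed against NTg and in no other comparison. CPM values of Cldn11 were 90.7, 128 and 148 in NTg and 84.9, 79.4 and 87.3 in the Q33 double cords. Among the other genotypes the values were 100.1, 114 and 87.9 in Q22, 113, 95.2 and 86.4 in Q33, 124, 103 and 113 in TDP-43 and 86.7, 129.7 and 89.6 in the Q22 double. The Q33 double values were close together and NTg ranged widely, with NTg replicate 1 near the Q33 double. Cldn11 had a log2 fold change of -0.54 ± 0.17 against NTg (edgeR adjusted p = 0.0411), and the call was lost without any 1 of NTg replicates 2 and 3 and Q33 double replicates 1, 2 and 3 (adjusted p of 0.0567 to 0.209). Whether the difference from NTg is larger than that from the other genotypes was not tested.

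Mbp, Mag and Ermn fell against TDP-43 and did not pass against NTg. Mbp stood at 4736, 4321 and 5118 CPM in the NTg cords and 3475, 4189 and 4044 CPM in the Q33 double cords. Values were 5416, 4413 and 4405 in Q22, 5445, 4307 and 4506 in Q33, 4970.5, 5119 and 5747 in TDP-43 and 4038, 5130.3 and 4242 in the Q22 double. On average Mbp was highest in TDP-43 and lowest in the Q33 double, with no overlap between the 2. On the log2 scale Mbp gave -0.44 ± 0.12 against TDP-43 (edgeR adjusted p = 0.0274) and -0.28 ± 0.12 against NTg (edgeR adjusted p = 0.146). The call was lost without any 1 of Q33 double replicate 1 and TDP-43 replicate 3 (adjusted p of 0.129 to 0.144).

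Mag, an adhesion molecule of the membrane that faces the axon, was likewise highest on average in TDP-43 and lowest in the Q33 double. CPM values of Mag were 285, 280.4 and 289 in NTg and 190.5, 259 and 233 in the Q33 double cords. Among the other genotypes the values were 298, 271 and 238 in Q22, 292, 253 and 264 in Q33, 272, 294 and 319 in TDP-43 and 236, 289 and 268 in the Q22 double. Replicate 1 of the Q33 double was the lowest library at 190.5 CPM, and its replicate 3 the next lowest. The log2 fold change of Mag was -0.38 ± 0.11 against TDP-43 (edgeR adjusted p = 0.0343) and -0.32 ± 0.11 against NTg (edgeR adjusted p = 0.0654), and the call was lost without any 1 of Q33 double replicates 1 and 3 and TDP-43 replicates 2 and 3 (adjusted p of 0.0501 to 0.188). Ermn codes for ermin, a cytoskeletal protein of mature oligodendrocytes. Ermn stood at 447, 458 and 521 CPM in the NTg cords and 312, 311 and 424 CPM in the Q33 double cords. In Q22 Ermn was at 458, 477 and 353, in Q33 at 469.9, 402 and 451, in TDP-43 at 543, 474 and 524 and in the Q22 double at 312, 513 and 414. Q33 double replicates 1 and 2 and Q22 double replicate 1 stood together at 311 to 312 CPM. Ermn had a log2 fold change of -0.56 ± 0.16 against TDP-43 (edgeR adjusted p = 0.0274) and -0.45 ± 0.16 against NTg (edgeR adjusted p = 0.0694), and the call was lost without any 1 of Q33 double replicates 1 and 2 and TDP-43 replicates 1 and 3 (adjusted p of 0.0912 to 0.141).

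Ninj2, which codes for an adhesion protein, had the largest estimate among the myelinating genes against NTg without passing. CPM values of Ninj2 were 2.34, 1.62 and 1.51 in NTg and 1.05, 0.924 and 0.929 in the Q33 double cords. The Q22 cords held 1.51, 1.78 and 1.09, the Q33 cords 1.67, 1.21 and 1.30, the TDP-43 cords 1.17, 1.04 and 0.568 and the Q22 double cords 0.696, 1.08 and 1.11. All 9 libraries that carry TDP-43, alone or in a double, lay below the lowest NTg library (1.51), as did Q22 replicates 1 and 3 and Q33 replicates 2 and 3. On the log2 scale Ninj2 gave -0.91 ± 0.30 for the Q33 double (edgeR adjusted p = 0.0569), -0.99 ± 0.31 for TDP-43 and -0.93 ± 0.31 for the Q22 double against NTg, of which none passed (edgeR adjusted p = 0.997 and 1 for the latter 2). Ninj2 was the shallowest member, with as few as 14 counts in a library.

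The remaining 14 myelinating genes passed in no comparison, with log2 fold changes of -0.36 to 0.15 against NTg and -0.48 to 0.25 against TDP-43. Among the membrane proteins of the sheath, Mobp was at 2122, 1908 and 1985 CPM in NTg and 1290.2, 1951 and 1763 in the Q33 double (-0.27), and Mog, on its outer surface, at 61.4, 79.5 and 83.9 and 59.8, 71.96 and 70.05 (-0.16). Cnp, an enzyme of the cytoplasmic channels, was at 305, 296 and 316 and 233, 288 and 255 CPM (-0.24). Both Mobp and Cnp were lowest in Q33 double replicate 1. Mal and Pllp, which organise lipid-rich membrane, gave -0.28 and -0.01, and Ugt8a, which makes galactosylceramide, gave -0.36. Gjb1, a gap junction connexin, gave -0.18, Aspa, which splits N-acetylaspartate, -0.31, Trf, transferrin, -0.23, and Apod, a lipid carrier, -0.17. Tspan2, Gpr37 and Opalin gave -0.19, -0.14 and -0.08, and the factor Nkx6-2 gave 0.15, the only one of the 20 above 0. Gpr37 kept within 174 to 219.5 CPM over 18 libraries.

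Further genes of each stage, outside the 36, were read in the same way, and were also chosen with earlier results of these data known. Of all 20635 genes, 1318 fell and 1173 rose against NTg, and 1375 fell and 1235 rose against TDP-43. Of 16 other precursor genes 3 fell against NTg and none rose, C1ql1 (-1.10 ± 0.24), Dcc (-0.34 ± 0.10) and Susd5 (-0.44 ± 0.14) in log2 fold change, with a median of -0.28 over the 16. C1ql1, a secreted protein of the C1q family, had the largest value in each of the comparisons with NTg, TDP-43 and the Q22 double (-1.10, -1.21 and -1.39). Of 12 other newly formed genes none passed against NTg (median -0.04), and 1 fell against TDP-43, Cnksr3 (-0.70 ± 0.18). Of 36 other myelin genes 10 fell and 1 rose against NTg (median -0.19). Those that fell included Hhip (-0.90 ± 0.17), a hedgehog-binding protein, Anln (-0.68 ± 0.16), a cytoskeletal protein, and Dock10 (-0.50 ± 0.10), an activator of small GTPases. The 1 that rose was Qdpr (0.52 ± 0.14), an enzyme that regenerates tetrahydrobiopterin. Against TDP-43, 14 of the 36 fell and 1 rose, Omg (0.60 ± 0.15), a myelin glycoprotein that neurons also express.

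In the other 9 comparisons and interactions none of the 36 members passed. For Q22, Q33, TDP-43 and the Q22 double against NTg, edgeR called 0 of 36, with 0, 0, 2 and 1 members at an unadjusted p under 0.05, and DESeq2 also called 0. Of all 20635 genes, 873, 1502, 873 and 474 had such a p. The same edgeR fit called 0%, 0%, 0% and 0.00969% of all genes in these comparisons, the last with 0.00485% in each direction. The 2 members at an unadjusted p under 0.05 in TDP-43 were Ninj2 and Opalin, and the 1 in the Q22 double was Ninj2. Q33 against Q22, the Q22 double against Q22 and the Q22 double against TDP-43 likewise gave 0 of 36 in edgeR and in DESeq2, with 0, 1 and 1 at an unadjusted p under 0.05 (442, 851 and 497 of all genes). Few members separated the libraries of these groups. Against NTg, libraries lay wholly lower for Enpp6 in Q22 (5.62% of all genes lower, 4.94% higher), Enpp6 in Q33 (7.74% and 7.79%), Ninj2 in TDP-43 (4.15% and 3.64%) and Ninj2 in the Q22 double (3.68% and 3.2%), and wholly higher for Olig1 in Q33. Enpp6 in Q33 had a log2 fold change of -0.39 against NTg, which did not pass (edgeR adjusted p = 0.688). Between the other groups, Nkx2-2 lay wholly higher in Q33 than in Q22 (4.13% lower and 3.82% higher), Pllp lower in the Q22 double than in TDP-43 (3.06% and 3.2%), and Opalin, Pllp and Lhfpl3 lower in the Q22 double than in Q22 (4.95% and 4.91%). Median log2 fold changes over the 36 were -0.05 for Q33, 0.04 for TDP-43 and -0.10 for the Q22 double against NTg. Without the filter on low counts Bcas1 passed in Q22 (0.40, edgeR adjusted p = 0.0266) and in Q33 (0.39, edgeR adjusted p = 0.0203) against NTg. Of all 39219 genes in that fit, 0.125% fell and 0.482% rose in Q22, and 0.377% and 0.663% in Q33. Genes below the count filter lower these shares.

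The interaction asks whether the Q33 knock-in changes a gene by a different amount when TDP-43 is also present. No member passed in edgeR for Q33 (0% of all genes did), though 12 of 36 had an unadjusted p under 0.05, as did 2674 of all 20635 genes. For Q22 no member passed and 1, Bcas1, had such a p (828 of all genes). The interaction of Cacng4 with Q33 was -1.15 ± 0.27 on the log2 scale (edgeR adjusted p = 0.219), the smallest adjusted p of the 36. DESeq2 called 1 member in the Q33 interaction, Cacng4 (adjusted p = 0.0179), where it called 0.156% of all genes lower and 0.15% higher. It called none in the Q22 interaction. Without the filter on low counts edgeR called Sox10, Mobp, Bcas1, Gpr17 and Cacng4 in the Q33 interaction and Bcas1 in the Q22 interaction. Of all 39219 genes in that fit, many of them below the count filter, 0.908% were lower and 0.451% higher in the Q33 interaction. In the Q22 interaction the shares were 0.362% and 0.13%. The edgeR fit on filtered genes therefore does not show that the Q33 knock-in acts differently with and without TDP-43 on any member.

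The stages were also read as a median per library of the log2 ratio to the NTg mean. For the newly formed genes it was -0.51, -0.52 and -0.34 in the Q33 double, below the lowest of the other 15 libraries (-0.23, Q33 replicate 2). How many other gene sets of this size separate in this way was not counted. Sums of the 12 other newly formed genes overlapped, at 265 to 281 CPM in the Q33 double and 266 to 287 in NTg. For the precursor genes the median was -0.49, -0.29 and -0.17, with the other 15 libraries between -0.16 and 0.09. For the myelinating genes it was -0.43, -0.14 and -0.16, of which the latter 2 lay within the other libraries, whose lowest was -0.28 in Q22 double replicate 1. The lineage factors gave -0.19, 0.26 and -0.18, inside the span of the other libraries. Q33 double replicate 1, the library with the highest share of mitochondrial ribosomal RNA, was the lowest of the 18 for the precursor and myelinating genes.

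**Figure D5:**
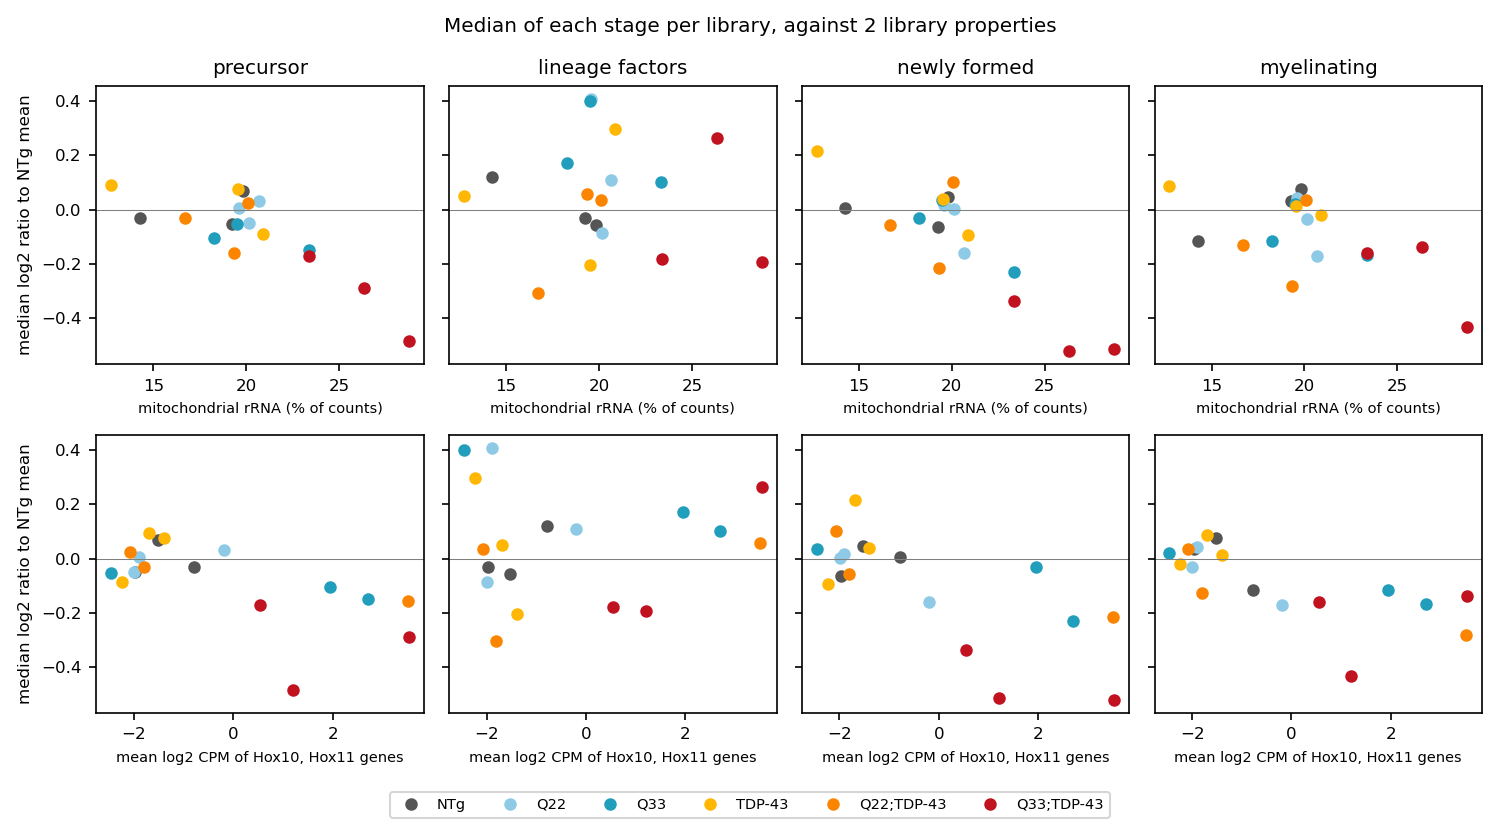
Median log2 ratio to the NTg mean for the genes of each stage (columns), 1 point per library, against the share of counts in mitochondrial ribosomal RNA (upper row) and against the average Hox10 and Hox11 level in log2 CPM (lower row), coloured by genotype. The Q33;TDP-43 libraries hold the highest ribosomal shares (23.4% to 28.7%) and the lowest newly formed medians (-0.34 to -0.52).

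These library properties moved with the genotype, and their part in the results cannot be told apart from it with these groups. When the share of mitochondrial ribosomal RNA was added to the model, no member passed in any of the 4 comparisons of the Q33 double. Only 28 of 20635 genes then passed against NTg (0.136%, all lower). Of all genes, 0.0145% fell against TDP-43, 0.349% fell and 0.00485% rose against the Q22 double, and 0% passed against Q33. A count of 0 members is near these shares. Against NTg the estimates were then -0.44 for Cacng4, -0.23 for Pdgfra, -0.34 for Vcan, -0.88 for Enpp6 and -0.76 for Cldn11, at adjusted p of 0.257 or more. With the mean of the Hox10 and Hox11 genes added, Cacng4 (-0.99, edgeR adjusted p = 0.0306) and Enpp6 (-0.72, edgeR adjusted p = 0.0475) still passed against NTg and the other 5 did not, while the share of all genes called went to 2% lower and 0.577% higher. Against TDP-43 that fit called Cacng4 alone of the 36, and 1.09% and 0.46% of all genes. Against the Q22 double Cacng4, Pdgfra, Vcan, Enpp6 and Lhfpl3 still passed (edgeR adjusted p of 0.00205 to 0.0431) and Fa2h did not, with 4.08% and 4.02% of all genes called. Against Q33 Cacng4 still passed (edgeR adjusted p = 0.0454), with 0.46% and 0.121% of all genes called. With a term for Y-linked reads 7 members fell against NTg, where Ninj2 passed and Cldn11 did not (-0.54, edgeR adjusted p = 0.0585). In that fit 5.58% of all genes fell and 4.62% rose. The members called against TDP-43, the Q22 double and Q33 all still passed with the Y-linked term. Of all genes, 6.55%, 6.23% and 0.582% fell and 5.95%, 6.6% and 0.213% rose in those comparisons.

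Some libraries of other genotypes allow a look at matched values, as single libraries and without a test. Q33 replicate 2 and Q33 double replicate 3 had the same share of mitochondrial ribosomal RNA (23.4%). Cacng4 was at 27.5 CPM in the first and 17.03 in the second, Enpp6 at 37.3 and 31.2, Pdgfra at 45.7 and 40.9, and Vcan at 59.5 and 57.3. All 4 are genes that fell against NTg. Stage medians of the first and second library were -0.15 and -0.17 (precursor) and 0.10 and -0.18 (lineage factors). They were -0.23 and -0.34 for newly formed and -0.17 and -0.16 for myelinating genes. The pair was not matched in Hox10 and Hox11 level (2.71 and 0.55) or in Y-linked RNA (206 and 1.46 CPM). The 3 libraries outside the Q33 double with high Hox10 and Hox11 values (Q33 replicates 2 and 3 and Q22 double replicate 1) had Cacng4 at 27.5, 28.05 and 34.8 CPM, all above the Q33 double. Their Enpp6 values of 37.3, 34.4 and 28.6 CPM overlapped those of the Q33 double, and were the 3 lowest outside it.

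Markers of other cells moved in the same libraries. Their counts stand beside 1173 of all 20635 genes that rose and 1318 that fell against NTg. Against NTg, 4 of 10 neuronal markers rose in the Q33 double (Snap25, Eno2, Tubb3 and Stmn2) and 1 fell (Syt1). The summed level of the neuronal markers ran from 11605 to 14378 CPM in the Q33 double, against 7882 to 9158 in NTg. It was also above NTg in Q22 (9375 to 12724 CPM) and Q33 (10189 to 12661). In TDP-43 (7264 to 11153) and the Q22 double (7878 to 10249) it overlapped NTg. Of 10 microglial markers 3 fell, with sums of 227 to 262 CPM against 318 to 377 in NTg. Of 10 astrocyte markers 3 fell and 1 rose, with sums of 6625 to 8082 CPM against 7961 to 8313. Astrocyte sums were also below NTg in Q22 (7439 to 7732 CPM). Of the 8 pericyte and smooth muscle markers 2 rose and of 9 fibroblast markers tested 1 fell. The summed level of the 7 precursor genes was 456 to 537 CPM in the Q33 double and 548 to 599 in NTg, that of the 20 myelinating genes 6914 to 8597 against 9164 to 10239.9, and that of the 5 newly formed genes 488 to 712 against 528 to 693. The part of these shifts in the oligodendrocyte results was not tested.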

How the data were processed

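Whole spinal cord RNA of 18 mice was sequenced in pairs of reads after ribosomal RNA was removed, from a stranded total RNA kit, per the labels' protocols. The deposited values are raw gene counts, made with featureCounts 1.6.1 over exons on the sense strand with the GENCODE vM19 annotation, per the file headers. Trim Galore 0.4.1, TopHat2, DESeq2 and the build mm10 are named in the submitters' processing notes. Of 54446 genes, 54409 were matched to symbols in the reference gene names.

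Counts were fitted with edgeR 4.0.16 (R 4.3.3, limma 3.58.1): TMM scaling, filterByExpr, which left 20635 genes, 1 term per genotype over all 18 libraries, and the two-sided quasi-likelihood test with Benjamini-Hochberg adjustment over all genes of a comparison at 0.05. SE is the log2 fold change divided by the square root of the F statistic. Totals of 16061359 to 30978678 counts set the precision. Groups come from the labels, and replicate numbers follow listing order. All 36 genes are named. Each library's value is printed for every gene that passed a comparison and for the gene of each stage with the largest change against NTg. Alternatives were library totals, removal of mitochondrial ribosomal RNA genes, DESeq2 1.42.0, no filter, only the groups compared, each library left out, and terms for Y-linked reads, Hox10 and Hox11 level and mitochondrial ribosomal RNA share. The 36 genes and the other gene lists were chosen with earlier results of these data known.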

Additional observations from a re-analysis of the deposited data

How the results depend on the processing

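No paired analysis was possible because the labels give the genotypes no shared replicate numbers. For the Q33 double, the number of members that passed against NTg, TDP-43, the Q22 double and Q33 was 7, 11, 6 and 1 as reported. It was 22, 25, 16 and 3 with library totals. Of all genes, 19.1%, 18.6%, 17.6% and 1.86% then fell and 0.998%, 1.24%, 1.43% and 0.0582% rose. With the mitochondrial ribosomal RNA covariate the number of members was 0 in each. Of all genes, 0.136%, 0.0145%, 0.349% and 0% then fell and 0%, 0%, 0.00485% and 0% rose. The Hox10 and Hox11 covariate gave 2 against NTg, 1 against TDP-43, 5 against the Q22 double and 1 against Q33. Without the filter on low counts the number was 11 against NTg, 18 against TDP-43 and 8 against Q33. Of all 39219 genes in that fit, 3.59%, 4.03% and 1.65% fell and 4.53%, 4.2% and 1.27% rose. DESeq2 gave 7 against Q33, and a fit on only the groups compared gave 2 against TDP-43 and 3 against the Q22 double. Leaving out each library in turn gave 2 to 10 against NTg, 4 to 11 against TDP-43, 2 to 6 against the Q22 double, 0 to 4 against Q33, and 0 in each of the other 9 comparisons. Of those 9, the exceptions to 0 under the other settings were 1 for Q33 against NTg, 1 for Q22 against NTg, 5 for the Q33 interaction and 1 for the Q22 interaction without the filter, and 1 for the Q33 interaction in DESeq2. The log2 fold change of Gpr17 turned to 0.15, 0.012 and 0.054 against NTg, TDP-43 and the Q22 double with the mitochondrial ribosomal RNA covariate, and that of Lhfpl3 against NTg to -0.11. Ninj2 turned from above to below 0 against TDP-43 with library totals (-0.14) and ran from -0.17 (without TDP-43 replicate 3) to 0.27 over the omitted libraries. Against the Q22 double Ninj2 turned to -0.22 with library totals, -0.028 with the mitochondrial covariate, -0.17 without Q22 double replicate 1 and -0.047 without Q33 double replicate 1, with a highest value of 0.12 over the omitted libraries. The cause of these changes was not tested. Removing the mitochondrial ribosomal RNA genes changed the direction or call of none of the 56 fold changes followed. With 3 mice per genotype and 14 to 61 counts per library, Ninj2 is the member that depth limits most.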

Other observations

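A pair of precursor genes moved apart in the Q33 double, a comparison chosen after their values were seen and given without a test. The ratio of Cacng4 to Lhfpl3, both per kilobase of exon, was 0.178, 0.388 and 0.273 in the 3 Q33 double libraries. In the other 15 libraries it lay between 0.449 and 1.22, so the groups did not overlap. A ratio within a library does not depend on its scaling.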
